A study of Mus musculus with 12 samples.

Results

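Heat shock proteins are chaperones that keep other proteins folded, and 10 genes of this system were followed in the skeletal muscle of mice given IL-8, the chemokine KC or vehicle. The genes were picked by symbol and not by a threshold on these values, although earlier results of these data were known when the list was made: Hsf1, Hspa1a, Hspa1b, Hspa8, Hsph1, Hspb1, Hspb6, Hspb7, Cryab and Bag3. A named row was matched for 9 of the 10, out of 23185 named genes on the array, and Hsf1 was not analysed here. RNA was hybridised to 12 Affymetrix Mouse Gene 2.0 ST arrays. The IL-8 group had 5 arrays from mice injected into the peritoneum with 50 µg/kg recombinant human IL-8, the KC group 4 arrays from mice given 50 µg/kg recombinant KC, and the vehicle group 3 arrays, numbered 1, 2 and 4, from mice given 0.1% BSA, every other day for 6 days in each case. The IL-8 and vehicle mice were male C57BL/6J animals of 8 weeks and their tibialis anterior (TA), a fast muscle of the shin, was taken on day 7. For the KC mice the labels give skeletal muscle, and the sources used here do not state their strain, sex, age or day of collection. The extraction text of all 12 labels describes rectus abdominis biopsies of patients, in conflict with the mouse labels and the methods, which were followed here. Mice lack the gene for IL-8, so the injected protein is foreign to them, whereas KC (CXCL1) is one of their own ligands of the receptor CXCR2. No transgene or deletion is named for any group.

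In stressed cells the transcription factor HSF1 binds heat shock elements, short repeats of GAA in alternating orientation, and switches on genes such as Hspa1a, Hspa1b and Hsph1. Hsp70 proteins (Hspa1a, Hspa1b and the constitutive Hspa8) bind unfolded stretches of protein, and Hsph1 (Hsp105) is a nucleotide exchange factor that resets them. Small heat shock proteins (Hspb1, Hspb6, Hspb7 and Cryab) hold unfolding proteins without using ATP and are abundant in striated muscle, where several of them sit at the sarcomere's Z-disc. Bag3 is a cochaperone that links Hsp70 to small heat shock proteins and steers damaged filamin from the Z-disc into autophagy.

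The stretches just upstream of the start sites are shown for the members whose values are described most closely, because this is where HSF1 acts on the inducible genes. Promoters of 300 bases (250 before the start site to 50 after it) were matched by symbol for 7 of the 9 genes in RefSeq, build GRCm38.p6, and Hspa8 and Cryab had no entry in the table used. Each line holds the 150 bases that end 1 base before the start site, 5′ to 3′ on the gene's strand, in lower case, with matches to a pair of heat shock units (GAANNTTC or TTCNNGAA, each of which reads the same on both strands) in capitals.
Hspa1a: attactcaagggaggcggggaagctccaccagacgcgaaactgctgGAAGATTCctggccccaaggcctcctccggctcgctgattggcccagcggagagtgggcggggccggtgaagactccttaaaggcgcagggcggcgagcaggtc
Hsph1: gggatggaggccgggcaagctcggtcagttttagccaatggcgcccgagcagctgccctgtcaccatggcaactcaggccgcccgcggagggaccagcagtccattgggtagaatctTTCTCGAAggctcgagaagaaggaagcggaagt
Hspb1: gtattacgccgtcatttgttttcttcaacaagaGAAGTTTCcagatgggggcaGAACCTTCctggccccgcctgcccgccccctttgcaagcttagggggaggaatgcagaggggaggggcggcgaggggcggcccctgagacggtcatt
Hspb6: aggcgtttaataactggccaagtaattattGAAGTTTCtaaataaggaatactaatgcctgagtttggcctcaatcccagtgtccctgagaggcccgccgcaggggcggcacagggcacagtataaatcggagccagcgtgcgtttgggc
Hspb7: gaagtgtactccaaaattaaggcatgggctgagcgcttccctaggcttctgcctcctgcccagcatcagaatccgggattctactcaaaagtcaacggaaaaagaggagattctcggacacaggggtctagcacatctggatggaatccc
Bag3: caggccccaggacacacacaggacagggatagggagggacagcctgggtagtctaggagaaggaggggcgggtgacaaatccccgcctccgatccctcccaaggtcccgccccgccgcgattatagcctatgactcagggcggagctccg
These windows lie at chr17:34972157-34972306 (minus strand, Hspa1a), chr5:149636337-149636486 (minus strand, Hsph1), chr5:135887769-135887918 (plus strand, Hspb1), chr7:30553151-30553300 (plus strand, the downstream of a pair of Hspb6 start sites, shown because it holds the match), chr4:141420629-141420778 (plus strand, Hspb7) and chr7:128523433-128523582 (plus strand, Bag3). A pair of units was matched in the 300-base promoters of 6 of the 7 genes, and in 15.1% of all 32851 mouse promoters of that length. Counted by promoter, since Hsph1 and Hspb6 each have a pair of start sites, 7 of 9 held a match. In Hspa1a the match began at base -104, in Hspb1 at -117 and -97, and in Hsph1 at -33 from the start site shown and at -54 from the other. In Hspb6 it began at -120 from the start site shown, and the 300 bases of its other start site held none. The match of Bag3 began at base 43 after the start site, outside the printed window, and Hspb7 had none in its 300 bases. A run of 3 units (GAANNTTCNNGAA or TTCNNGAANNTTC) was matched only in Hsph1 among the 7 genes, past its start site, against 0.603% of all promoters. Hspa1b had the same match at the same place as Hspa1a, and the promoters of this gene pair differed at 4 of 300 bases. A match says only that these letters are present. The coding sequences of this pair are also nearly identical, so that probes may share signal between them, and the values of both are uncertain for that reason.

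Values are robust multi-array average (RMA) values on the log2 scale, so that a difference of 1 is a doubling of signal. Levels of different genes are not compared, because each has its own probes. All arrays carried the mark of muscle: the mean of 10 myofiber markers was 11.30 to 11.66 in IL-8 muscle, 11.04 to 11.38 in KC muscle and 10.95 to 11.35 in vehicle muscle, against array medians of 3.31 to 3.48. A liver-transcript signal was high in 3 arrays, IL-8 replicate 1 and vehicle replicates 2 and 4, where the mean of 12 liver markers was 5.78, 6.49 and 6.03, while it was 2.73 to 3.29 in the other 9. Alb, the albumin gene, was at 7.70 in IL-8 replicate 1, 10.15 in vehicle replicate 2 and 9.78 in vehicle replicate 4. These arrays are called the liver-transcript arrays, they make up 2 of the 3 vehicle arrays, and the member differences that moved most are also given without them. Comparisons were fitted with limma. Calls needed both a fold change of 1.5 or more and a p, adjusted by Benjamini-Hochberg over all 23185 genes, no higher than 0.1. A single gene was also compared by a two-sided exact permutation test, whose smallest possible p is 0.0179 for 5 arrays against 3, 0.0286 for 4 against 3 and 0.00794 for 5 against 4. For KC, nothing in the sources says that the 4 arrays came from separate animals, so that p-values measure only the spread between these samples. Precision is set by how few arrays there are.

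Of the 9 members, limma called 3 between the chemokine groups and 0 between either chemokine and vehicle. Bag3, Hspb6 and Hspb7 were higher in IL-8 muscle than in KC muscle, by 1.60-fold, 1.64-fold and 1.96-fold. These are 2 small heat shock proteins of muscle and the cochaperone that binds this family. The family did not move as a whole. Its members Cryab and Hspb1 were higher by 0.34 and 0.24, and neither was called. The 6 measured small heat shock protein genes outside the members had a median difference of -0.16, with 0 called. The inducible Hsp70 genes had no call. In all, 3 of 9 members were called higher and 0 lower, while 3.02% of all genes were called in this comparison (374 higher and 326 lower). The median difference of the 9 members was 0.24, and that of all genes -0.05, and without IL-8 replicate 5 the members' median was 0.039.

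Bag3 was at 6.66, 7.22, 6.89, 7.26 and 7.24 in IL-8 replicates 1 to 5, against 6.41, 6.62, 6.27 and 6.18 in KC replicates 1 to 4, and vehicle replicates 1, 2 and 4 were at 6.83, 6.15 and 6.10. Each of the 5 IL-8 arrays exceeded the highest KC array, and vehicle replicate 1 stood among the lower IL-8 arrays. The difference between IL-8 and KC was 0.68 (SE 0.15, adjusted p = 0.067, exact permutation p = 0.0159), with means of 7.05 ± 0.27 for IL-8 (SD, n = 5) and 6.37 ± 0.19 for KC (SD, n = 4). Against vehicle, the IL-8 difference was 0.69 (SE 0.20), with 4 of 5 IL-8 arrays above the highest vehicle array, and was not called (adjusted p = 0.114, exact permutation p = 0.0536). KC and vehicle muscle differed in Bag3 by 0.01 (SE 0.20).

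Hspb6 (Hsp20), a small heat shock protein of muscle, was at 11.16, 11.61, 11.28, 11.60 and 10.97 in IL-8 replicates 1 to 5, against 10.66, 10.91, 10.61 and 10.24 in KC replicates 1 to 4. The IL-8 and KC arrays did not overlap. The difference was 0.72 (SE 0.17, adjusted p = 0.072, exact permutation p = 0.0159). Vehicle replicates 1, 2 and 4 were at 11.75, 9.83 and 10.65, so that the vehicle group held both the highest and the lowest Hspb6 value of the 12 arrays. The difference of IL-8 from vehicle was 0.58 (SE 0.35, adjusted p = 0.347) and that of KC from vehicle -0.14 (SE 0.38, adjusted p = 0.994), and neither was called.

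Hspb7 (cvHsp), which is expressed mainly in heart and skeletal muscle and binds filamin C, was at 8.43, 9.42, 8.74, 9.41 and 9.50 in IL-8 replicates 1 to 5, against 7.98, 8.51, 7.67 and 8.37 in KC replicates 1 to 4. IL-8 replicate 1 lay just under the highest KC array and the other 4 IL-8 arrays lay above it. The difference was 0.97 (SE 0.25, adjusted p = 0.077, exact permutation p = 0.0317). In vehicle replicates 1, 2 and 4 the values were 9.24, 8.67 and 8.39, within the span of the IL-8 and KC arrays, and the difference of IL-8 from vehicle was 0.33 (SE 0.28, adjusted p = 0.494). Hspb7 was the member with the lowest difference of KC from vehicle, -0.64 (SE 0.25), with 3 of 4 KC arrays below the lowest vehicle array, which was not called (adjusted p = 0.994, exact permutation p = 0.114).

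**Figure D1:**
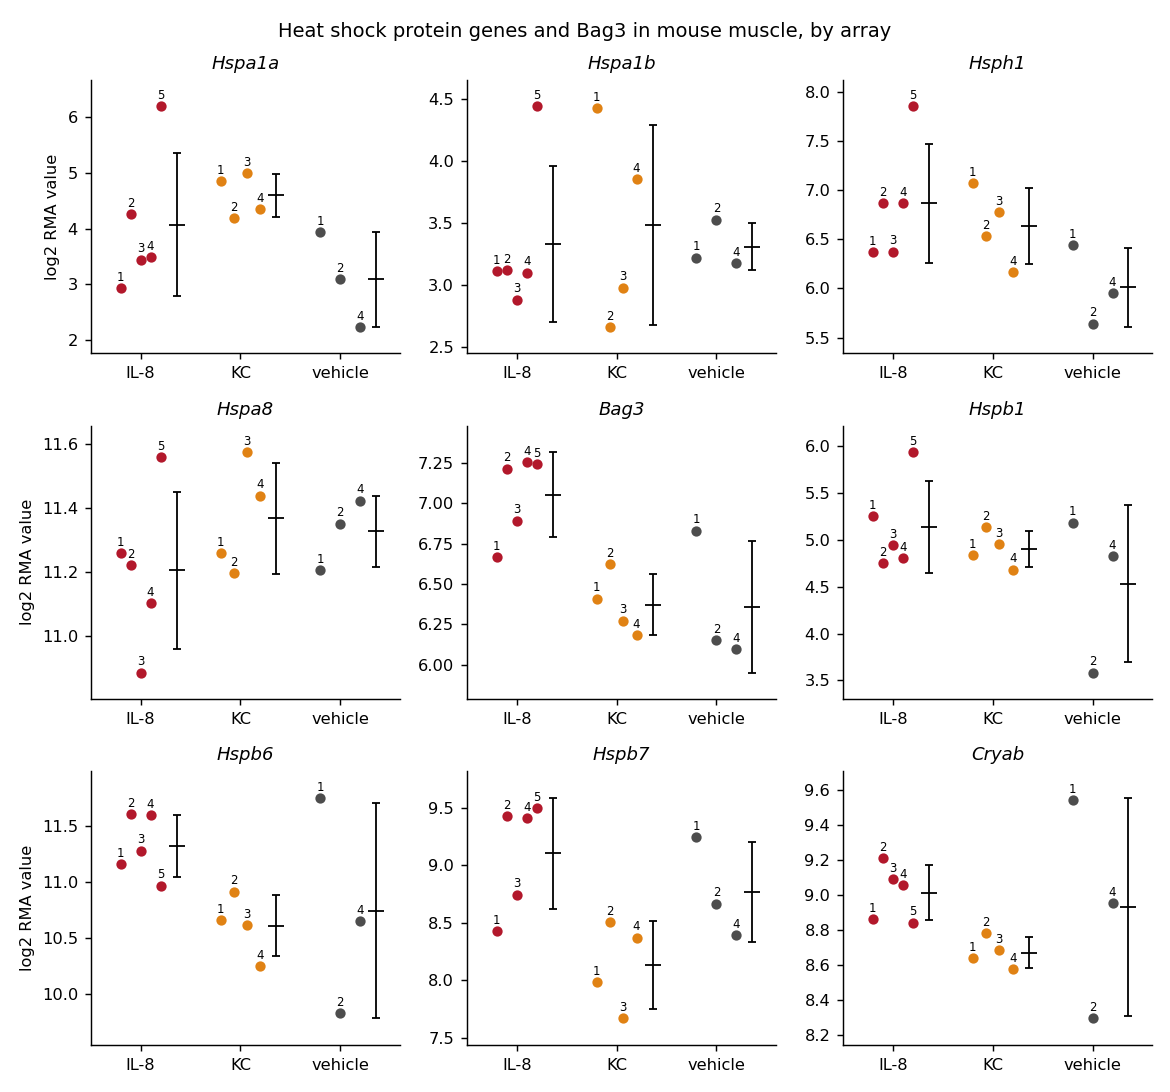
Log2 RMA value (vertical axis, scaled separately for each gene) of the 9 members in each array, with IL-8 at the left, KC in the middle and vehicle at the right; numbers are replicates, and bars are the mean ± SD of the group. In Bag3 and Hspb6 all 5 IL-8 points lie above all 4 KC points, and in Hspa1a, Hspa1b, Hsph1 and Hspb1 the point of IL-8 replicate 5 is the highest of its panel.

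Cryab (αB-crystallin), which binds desmin and titin, separated IL-8 from KC by a smaller step. It was at 8.86, 9.21, 9.09, 9.06 and 8.84 in IL-8 replicates 1 to 5, against 8.64, 8.78, 8.68 and 8.58 in KC replicates 1 to 4, with no overlap. The difference of 0.34 (SE 0.11) was 1.27-fold and was not called (adjusted p = 0.117, exact permutation p = 0.0159). Vehicle replicates 1, 2 and 4 were at 9.54, 8.30 and 8.95, again with the highest and the lowest value of the series in this group, and the difference from vehicle was 0.08 (SE 0.23) for IL-8 and -0.26 (SE 0.25) for KC. The count of members whose IL-8 and KC arrays did not overlap was therefore 3, Bag3, Hspb6 and Cryab, each higher in IL-8, against 6.68% of all genes that did not overlap in either direction.

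Hspb1 (Hsp27), a small heat shock protein that stabilises actin filaments, overlapped between all groups. It was at 5.26, 4.75, 4.95, 4.81 and 5.94 in IL-8 replicates 1 to 5, at 4.84, 5.14, 4.95 and 4.68 in KC replicates 1 to 4, and at 5.19, 3.58 and 4.83 in vehicle replicates 1, 2 and 4. Its difference of IL-8 from vehicle was 0.61 (SE 0.36, adjusted p = 0.344), and it was 0.13 without the low vehicle replicate 2 and 0.41 without the high IL-8 replicate 5. The difference of KC from vehicle was 0.37 (SE 0.33) and that of IL-8 from KC 0.24 (SE 0.22). Vehicle replicate 2, the array with the highest liver-marker mean, held the lowest value of the 12 arrays for Hspb1, Hspb6, Cryab and Hsph1.

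The inducible Hsp70 gene Hspa1a was highest in KC muscle on average. It was at 2.93, 4.26, 3.45, 3.50 and 6.20 in IL-8 replicates 1 to 5, at 4.86, 4.19, 5.00 and 4.36 in KC replicates 1 to 4, and at 3.94, 3.10 and 2.24 in vehicle replicates 1, 2 and 4. All 4 KC arrays lay above the highest vehicle array, while the IL-8 arrays spanned both groups. Vehicle replicates 2 and 4 lay below the array medians of 3.31 to 3.48, so that fold changes from vehicle rest on low signal. The difference of KC from vehicle was 1.51 (SE 0.36), or 2.84-fold, with an exact permutation p of 0.0286, the smallest this design allows. It was not called over all genes (adjusted p = 0.994), where limma called 0% of genes in this comparison and 923 genes had an unadjusted p under 0.05. Hspa1a was the 1 member of 9 whose KC and vehicle arrays did not overlap, against 4.94% of all genes. Without vehicle replicate 1 the difference was 1.93 and was called by limma (adjusted p = 0.034), beside 92 of all 23185 genes. Without the liver-transcript arrays, which leaves vehicle replicate 1 alone, the difference was 0.66. The difference of IL-8 from vehicle was 0.97 (SE 0.65, adjusted p = 0.393) and that of IL-8 from KC -0.53 (SE 0.53, adjusted p = 0.618).

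Hspa1b, the near-copy of Hspa1a, was at 3.11, 3.12, 2.88, 3.10 and 4.44 in IL-8 replicates 1 to 5, at 4.42, 2.66, 2.98 and 3.85 in KC replicates 1 to 4, and at 3.22, 3.52 and 3.18 in vehicle replicates 1, 2 and 4. IL-8 replicate 5 and KC replicates 1 and 4 stood above the rest, and its mean over the 12 arrays, 3.37, was no higher than the median of all gene means, 3.38. Its differences were 0.02 (SE 0.31) for IL-8 against vehicle, 0.17 (SE 0.37) for KC against vehicle and -0.15 (SE 0.38) for IL-8 against KC.

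Hsph1 was at 6.37, 6.87, 6.37, 6.87 and 7.85 in IL-8 replicates 1 to 5, at 7.07, 6.53, 6.78 and 6.16 in KC replicates 1 to 4, and at 6.44, 5.64 and 5.95 in vehicle replicates 1, 2 and 4. In each chemokine group 3 arrays lay above the highest vehicle array and none lay below the lowest. The difference was 0.85 (SE 0.32, adjusted p = 0.165, exact permutation p = 0.0714) for IL-8 against vehicle and 0.63 (SE 0.25, adjusted p = 0.994, exact permutation p = 0.114) for KC against vehicle. Both comparisons use the same 3 vehicle arrays. IL-8 and KC muscle differed in Hsph1 by 0.23 (SE 0.29). Hspa8, the constitutive Hsc70, had no called difference and was at 10.89 to 11.56 in IL-8 muscle with a median of 11.22, 11.20 to 11.57 in KC muscle with a median of 11.35, and 11.21 to 11.42 in vehicle muscle with a median of 11.35. Its differences were -0.12 (SE 0.15) for IL-8 against vehicle, 0.04 (SE 0.15) for KC against vehicle and -0.16 (SE 0.14) for IL-8 against KC.

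Between IL-8 and vehicle, 0 of 9 members were called by limma, and 2 (Bag3 and Hsph1) had an unadjusted p under 0.05. Such a p was held by 5022 of all 23185 genes, a share close to that of the members. Of all genes 2.55% were called in this comparison (406 higher and 186 lower). The median difference of the members was 0.58, and that of all genes -0.07. The members' median was 0.13 without vehicle replicate 2 and 0.93 without vehicle replicate 1, and it was 0.026 with the liver-transcript arrays left out and 0.21 with a block for them. The groups overlapped for all 9 members, whereas they did not for 11% of all genes. Without IL-8 replicate 1, Bag3 was called (0.79, adjusted p = 0.070), beside 1227 of all 23185 genes. Without vehicle replicate 2, 0 members were called, and the difference was 0.12 for Hspb6 (adjusted p = 0.878). Without vehicle replicate 1, Bag3 (0.93, adjusted p = 0.012), Hspb6 (1.09, adjusted p = 0.019) and Hsph1 (1.07, adjusted p = 0.065) were called. In that setting 3338 of all 23185 genes were called. With the 3 liver-transcript arrays left out, which leaves vehicle replicate 1 as the only vehicle array and assumes that it varies as the IL-8 arrays do, 0 members were called, and the differences were 0.32 for Bag3, -0.39 for Hspb6, 0.55 for Hsph1, -0.49 for Cryab, 0.026 for Hspb7, 0.41 for Hspa1a and -0.073 for Hspb1. Within the liver-transcript arrays, IL-8 minus vehicle was 0.54 for Bag3, 0.92 for Hspb6, 0.57 for Hsph1 and 0.24 for Cryab, with no test. Bag3, Hsph1 and Hspa1a (0.26 within the liver-transcript arrays) kept a positive sign in both sets of arrays, and Hspb6 and Cryab did not. The liver-transcript set has IL-8 replicate 1 as its only IL-8 array, and the other set has vehicle replicate 1 as its only vehicle array. The part of the liver-transcript signal in these differences was not tested. In KC against vehicle, 0 members were called, and 3 had an unadjusted p under 0.05 (Hspa1a, Hsph1 and Hspb7), beside 923 of all 23185 genes. The median of the members was 0.04 there, beside -0.004 for all genes. With the liver-transcript arrays left out, which again leaves vehicle replicate 1 alone, KC minus vehicle was -1.15 for Hspb6, -1.11 for Hspb7, -0.87 for Cryab, -0.46 for Bag3, -0.28 for Hspb1 and 0.20 for Hsph1, with 0 members called.

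**Figure D2:**
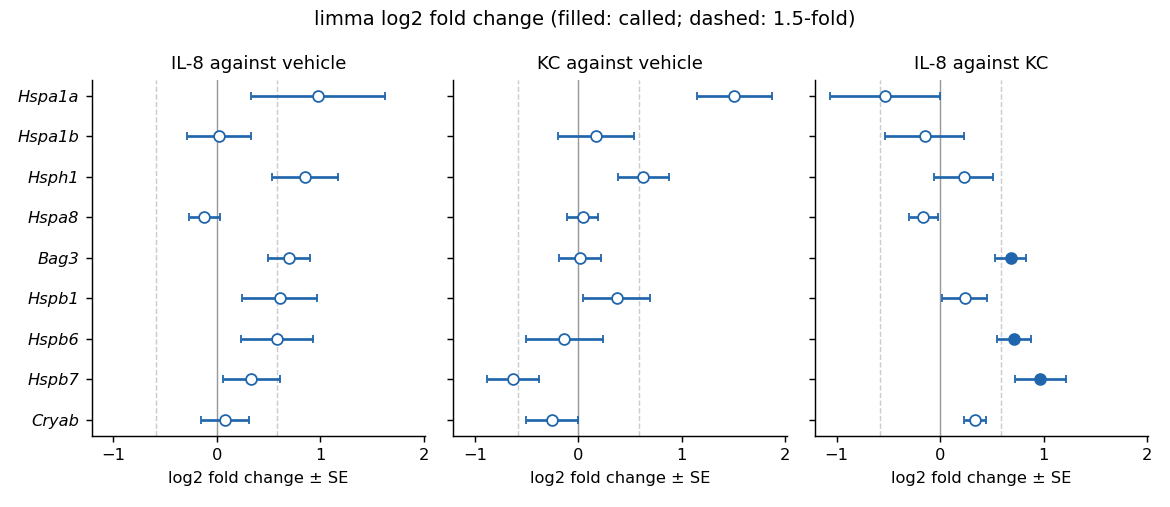
limma log2 fold change (horizontal axis) ± SE of the 9 members for IL-8 against vehicle, KC against vehicle and IL-8 against KC; filled points were called and dashed lines mark a 1.5-fold change. The filled points are Bag3, Hspb6 and Hspb7 in IL-8 against KC.

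The calls of IL-8 against KC do not involve the vehicle arrays, and the only liver-transcript array among them is IL-8 replicate 1. Without it the differences were 0.78 for Bag3 (adjusted p = 0.040), 0.76 for Hspb6 (adjusted p = 0.052) and 1.14 for Hspb7 (adjusted p = 0.042). The 3 calls also held without KC replicate 1 or KC replicate 2. They were lost without KC replicate 3, KC replicate 4, or any of IL-8 replicates 2 to 5, where limma called 0 to 8 of all 23185 genes. Across all single omissions the differences stayed between 0.62 and 0.78 for Bag3, 0.59 and 0.82 for Hspb6, and 0.82 and 1.14 for Hspb7. The mean of the 10 myofiber markers was 11.30 to 11.66 in IL-8 muscle and 11.04 to 11.38 in KC muscle, with 0 of 10 called. Of these 10, 3 had an unadjusted p under 0.05, beside 4598 of all 23185 genes, and the median difference of the 10 was 0.18. The mean of 6 endothelial markers was 5.93 to 6.32 in IL-8 muscle and 5.43 to 6.11 in KC muscle, with 1 of 6 called higher, Robo4, a receptor of the vessel wall (0.61, adjusted p = 0.064). The mean of 6 fibroblast and tendon markers was 7.11 to 8.69 in IL-8 muscle and 6.90 to 8.97 in KC muscle, with 0 of 6 called. None of these lists was at background, and their part in the member differences was not tested. With all 12 arrays in one fit none of the 3 calls held (adjusted p-values of 0.121 to 0.235). In whole muscle, fewer cells of a type and less RNA per cell cannot be told apart.

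IL-8 replicate 5 carried the highest value of all 12 arrays for 5 of the 9 members, Hspa1a, Hspa1b, Hsph1, Hspb1 and Hspb7, while it was the highest array for 9.46% of all genes. Hspa1a was 2.67 above the mean of the other 4 IL-8 arrays there. Of 12 other genes known to be induced by HSF1, 4 were highest in this array and 4 in KC replicate 3. That KC array was the highest for 9.27% of all genes, so that this count did not single out IL-8 replicate 5. The list mean of the 12 was 6.44 in IL-8 replicate 5 and 6.21 to 6.24 in IL-8 replicates 1 to 4. It was 6.28 to 6.53 over the KC arrays and 6.13 to 6.16 over the vehicle arrays. Neither the IL-8 nor the KC arrays overlapped vehicle, and the IL-8 and KC arrays overlapped each other. No test of the list was run. Hsp90aa1, the stress-inducible Hsp90, was at 5.09 there, whereas IL-8 replicates 1 to 4 lay between 3.63 and 4.07. The immediate early genes, a sign of handling, had a list mean of 4.31 in IL-8 replicate 5, the lowest of the IL-8 arrays. It was 4.36 to 4.75 in IL-8 replicates 1 to 4, 4.26 to 4.64 over the KC arrays and 4.42 to 4.63 over the vehicle arrays. Most of this came from Dusp1, at 7.04 in IL-8 replicate 5 and 8.35 to 8.85 in IL-8 replicates 1 to 4. Fos, Fosb and Atf3 were also lowest there among the IL-8 arrays, by smaller steps. Jun was at 7.21 there and at 6.63 to 7.25 in IL-8 replicates 1 to 4. The part of handling was not tested. Without IL-8 replicate 5 the difference of IL-8 from KC was -1.07 for Hspa1a (adjusted p = 0.110) and -0.02 for Hsph1, and that of IL-8 from vehicle was 0.44 for Hspa1a and 0.61 for Hsph1.

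**Figure D3:**
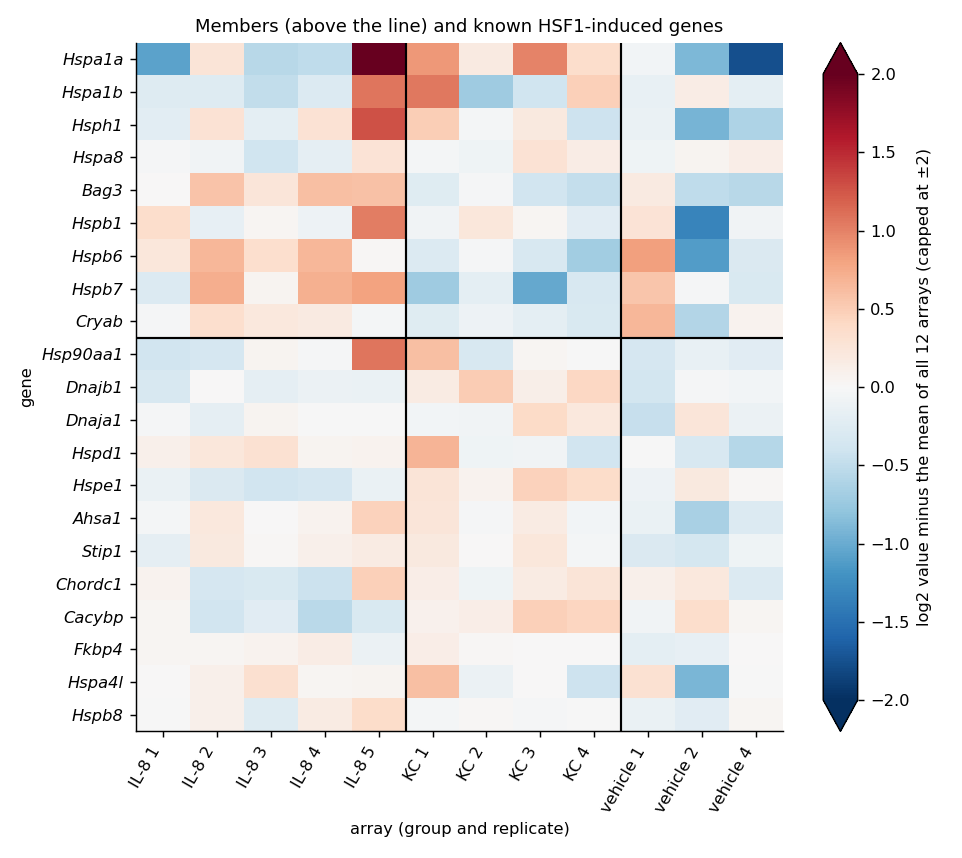
Log2 value of each gene minus its mean over the 12 arrays (colour, capped at 2 either way), for the 9 members above the line and 12 other HSF1-induced genes below it; columns are arrays, IL-8 then KC then vehicle. IL-8 replicate 5 is red for Hspa1a, Hspa1b, Hsph1, Hspb1 and Hsp90aa1, and vehicle replicate 2 is blue for Hspb1, Hspb6 and Hsph1.

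The members fell into patterns over the 12 arrays, given here as a description over arrays that share groups and the libraries named above. Hspb6 and Cryab followed each other most closely among the pairs examined (Pearson r = 0.92, Spearman rho = 0.91, and r = 0.88 without the 2 arrays farthest from the Hspb6 median). Bag3 followed Hspb6 (r = 0.81, rho = 0.83, r = 0.88 without 2 arrays) and Hspb7 (r = 0.82, rho = 0.78, r = 0.71 without 2 arrays). Hspa1a followed Hsph1 (r = 0.82, rho = 0.71), and this dropped to r = 0.59 without IL-8 replicate 5 and vehicle replicate 4. Among all genes above the median level, the 3 nearest to Bag3 were Sgta, a cochaperone of the Hsp70 and Hsp90 systems (r = 0.96), Atf7 (r = 0.96) and Ints3 (r = 0.96). The nearest to Hspb6 were Ncstn, Gorasp2 and Sypl (r = 0.95 each), and the nearest to Hsph1 were Ahsa2, an activator of Hsp90 (r = 0.97), Ranbp9 (r = 0.96) and Dis3l (r = 0.95). The nearest to Hspa1a were Ltv1 (r = 0.92), Dnajb4, an Hsp40 cochaperone (r = 0.90), and Snap29 (r = 0.87).

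In the wider chaperone network 70 other genes were measured. In IL-8 against vehicle 2 of them were called higher and 0 lower (median 0.16), beside 2.55% of all genes called. In KC against vehicle limma called 0, and 7 had an unadjusted p under 0.05 (median 0.18), beside 923 of all 23185 genes. In IL-8 against KC 2 were called higher and 0 lower (median -0.04), beside 3.02% of all genes called. The network was thus called at about the rate of all genes, and the called genes below are described singly. Flnc, filamin C, the Z-disc protein that Bag3 and Hspb7 handle, was at 7.73, 9.13, 8.59, 8.81 and 8.78 in IL-8 replicates 1 to 5, at 8.41, 7.87, 7.20 and 7.20 in KC replicates 1 to 4, and at 7.78, 6.66 and 6.91 in vehicle replicates 1, 2 and 4. Flnc was higher in IL-8 than in vehicle by 1.49 (SE 0.32, adjusted p = 0.091), the larger of the 2 calls, and IL-8 replicate 1 lay below vehicle replicate 1. Among the liver-transcript arrays alone the Flnc difference was 0.94, and among the remaining arrays it was 1.05 and was not called (adjusted p = 0.329). Flnc was the 1 of 8 BAG3 partners in chaperone-assisted autophagy that was called in that comparison, and 0 of 8 were called in KC against vehicle and in IL-8 against KC, where Flnc differed by 0.94 (SE 0.30, adjusted p = 0.123).

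Bag6, a cofactor that guards newly made membrane proteins, was at 6.96, 7.87, 7.46, 7.78 and 7.48 in IL-8 replicates 1 to 5, against 7.01, 7.06, 6.36 and 6.15 in KC replicates 1 to 4 and 6.86, 6.29 and 6.66 in vehicle replicates 1, 2 and 4. Bag6 was higher in IL-8 than in vehicle by 0.91 (SE 0.21, adjusted p = 0.091), with no overlap, and higher than in KC by 0.86 (SE 0.23, adjusted p = 0.082). The vehicle call was lost with the liver-transcript arrays left out (0.79, adjusted p = 0.352). Both vehicle calls, Flnc and Bag6, were also lost without vehicle replicate 2 or 4 or any 1 of IL-8 replicates 2 to 5, with adjusted p-values of 0.136 to 0.322, and after quantile normalization (0.114 and 0.117). Over all 23185 genes limma called 0 to 7 in those omissions and 2 after quantile normalization. In the same comparison with vehicle, 2 of 6 endothelial markers were called higher, Robo4 (0.75) and Vwf (0.64), and the list mean was 5.93 to 6.32 in IL-8 muscle and 5.37 to 6.28 in vehicle muscle. Of 5 adipocyte markers 1 was called lower, Fabp4 (-0.76), with a list mean of 3.77 to 4.66 in IL-8 muscle and 4.17 to 5.01 in vehicle muscle. Of 12 liver markers 1 was called lower, Cyp2c29 (-1.96). Of 6 fibroblast and tendon markers 0 were called and 3 had an unadjusted p under 0.05, beside 5022 of all 23185 genes. Their list mean was 7.11 to 8.69 in IL-8 muscle and 7.75 to 8.57 in vehicle muscle. Of 10 myofiber markers 0 were called and 4 had an unadjusted p under 0.05, with a median difference of 0.08. The myofiber list mean was 11.30 to 11.66 in IL-8 muscle and 10.95 to 11.35 in vehicle muscle. The part of these markers in the Flnc, Bag6 and member differences was not tested.

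Dnajb5, an Hsp40 of the DnaJ family, was at 8.05, 8.47, 8.34, 8.34 and 7.84 in IL-8 replicates 1 to 5, against 7.97, 7.73, 7.41 and 7.35 in KC replicates 1 to 4. Dnajb5 was higher in IL-8 by 0.59 (SE 0.16, adjusted p = 0.093). In IL-8 against KC neither Bag6 nor Dnajb5 was called without any 1 of IL-8 replicates 2 to 5 or KC replicates 3 and 4. In those omissions limma called 0 to 8 of all 23185 genes. Dnajb5 was also lost without KC replicate 2 (adjusted p = 0.110), where 671 genes were called.

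**Figure D4:**
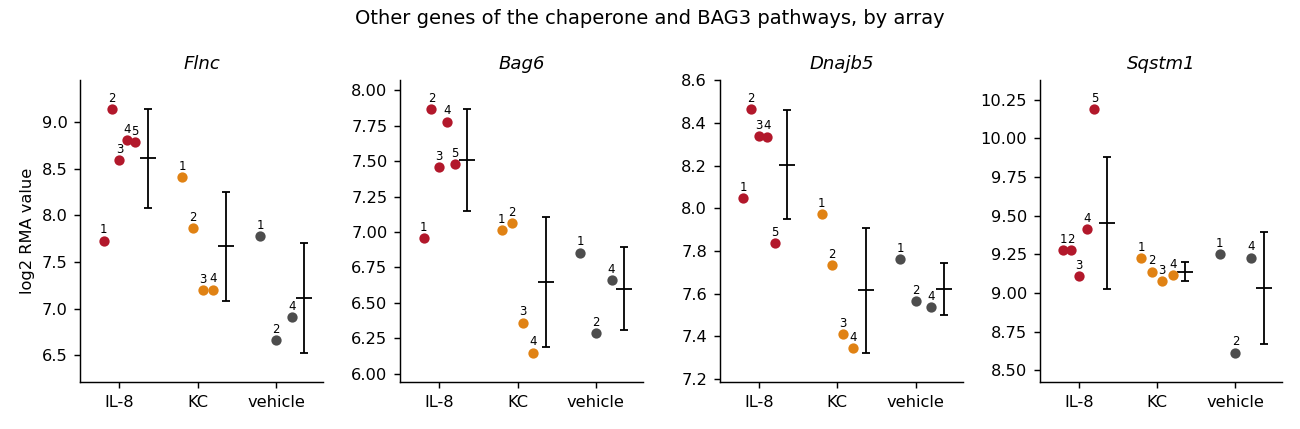
Log2 RMA value (vertical axis, scaled separately for each gene) of 4 other genes in each array, with IL-8 at the left, KC in the middle and vehicle at the right; numbers are replicates and bars are the mean ± SD of the group. Flnc, Bag6 and Dnajb5 are highest in IL-8 replicate 2, and Sqstm1 is highest in IL-8 replicate 5, at 10.19.

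By limma, other lists had no call in any comparison. These were 0 of 11 Hsp70 and Hsp110 genes, 0 of 6 small heat shock protein genes and 0 of 13 Hsp90 genes and co-chaperones. Likewise 0 of 10 chaperonins and 0 of 4 heat shock factors were called. Of each list 0 to 7 genes had an unadjusted p under 0.05. The Hsp90 genes and co-chaperones had 7 of 13 in IL-8 against vehicle (median 0.30). They had 4 of 13 in KC against vehicle (median 0.28) and 4 of 13 in IL-8 against KC (median -0.008). Their list mean was 6.46 to 6.79 in IL-8 muscle, 6.54 to 6.73 in KC muscle and 6.34 to 6.41 in vehicle muscle, with no test of the list. Over all 23185 genes such a p was held by 5022 in IL-8 against vehicle, 923 in KC against vehicle and 4598 in IL-8 against KC. Chosen after their values were seen, 5 genes of the network passed the adjusted p in IL-8 against KC without a 1.5-fold change, all lower in IL-8: Hspe1, the mitochondrial Hsp10 (-0.54, adjusted p = 0.064), Dnajb1, the main Hsp40 partner of Hsp70 (-0.45, adjusted p = 0.079), Bag1, a nucleotide exchange factor of Hsp70 (-0.51, adjusted p = 0.067), Cacybp, which binds the ubiquitin ligase SIAH1 (-0.57, adjusted p = 0.072), and Hspb3, a small heat shock protein of muscle (-0.51, adjusted p = 0.099). Over all 23185 genes 1147 passed the adjusted p limit in this comparison, 566 higher and 581 lower. Of these, 700 also changed 1.5-fold, 374 higher and 326 lower. Dnajb1 was at 4.54 to 4.87 in IL-8 muscle, 4.98 to 5.37 in KC muscle and 4.49 to 4.84 in vehicle muscle. The KC arrays overlapped neither group, and the IL-8 and vehicle means were both 4.71, so that Dnajb1 stood apart in KC. For the rest, vehicle means lay between those of IL-8 and KC: 6.26 for Hspe1, 6.99 for Bag1, 6.38 for Cacybp and 6.31 for Hspb3. Sqstm1, the p62 receptor that carries cargo from BAG3 complexes to the autophagosome, also chosen after its values were seen, was at 9.11 to 10.19 in IL-8 muscle, 9.08 to 9.22 in KC muscle and 8.61 to 9.25 in vehicle muscle, and IL-8 replicates 1, 2, 4 and 5 exceeded the highest vehicle value.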

How the data were processed

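Muscle RNA was hybridised to 12 Mouse Gene 2.0 ST arrays of Affymetrix (5 IL-8, 4 KC, 3 vehicle). The deposited files hold log2 values that the submitters' processing notes credit to RMA (affy 1.36.1, R 2.15.1). RMA subtracts background, equalises probe distributions between arrays and summarises probes, which compresses changes of dim genes. The sources used here do not say whether the arrays were processed together. Rows carry Entrez gene numbers and were named through a platform annotation of 2015: 23185 of 25206 had 1 symbol, and the 2021 unnamed rows entered only the setting that tests every entry.

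Each pair of groups was fitted on its own arrays with limma 3.58.1 (lmFit, eBayes) in R 4.3.3, adjusted over all named genes. Exact permutation tests counted splits with an absolute mean difference at least as large. The alternatives were all 12 arrays in one fit, dim genes left out (mean at or below the median), quantile normalization, median centring, a block for replicate numbers and array weights. Further ones were a t-test with unequal variances, a stricter adjusted p of 0.05, calls with no fold minimum, every entry, and each array left out. The paper's methods name unpaired t-tests and do not give this form. A block for, and omission of, the liver-transcript arrays were added after the values were seen. All 9 measured members are named, of each other pathway list every called gene up to 4 per comparison, marker genes only beside a result whose arrays they differ in, and the 3 genes nearest in pattern to each of 4 members. The members and lists were chosen with earlier results of these data known. The fits were tested on simulated data with seed 1. Promoters came from RefSeq (GRCm38.p6). Array numbers do not give a sequencing depth.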

Additional observations from a re-analysis of the deposited data

Results flagged for a closer look

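Hspa1b in IL-8 replicate 5 was at a log2 value of 4.44, far above the other 4 IL-8 arrays, which lay at 2.88 to 3.12. The gap to the nearest of them was 0.848 of the whole range of the group, above the critical value of 0.710 for 5 samples. It was the only such sample among 24 tests of a member or called gene in the IL-8 and KC groups, and chance alone marks about 1 group in 20. KC replicate 1 was at a similar level, 4.42, and the near-copy Hspa1a was also highest in IL-8 replicate 5.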

How the results depend on the processing

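In IL-8 against vehicle, 592 genes were called. This became 117 with all 12 arrays in one fit, 933 with dim genes left out, 2 with quantile normalization and 2083 with array weights. It was 2 at an adjusted p of at most 0.05, and 0 with the replicate block, the t-test with unequal variances or the block for the liver-transcript arrays. Leaving out 1 array each gave 0 to 3338 genes and 0 to 3 members, with 3338 genes without vehicle replicate 1. Bag3 was the 1 member called with dim genes left out, with array weights and without IL-8 replicate 1. Centring on the array median gave 83.9% of calls higher, against 68.6% as deposited. In IL-8 against KC, the 700 genes became 1 with all 12 arrays in one fit, 1193 with array weights, 1 at an adjusted p of at most 0.05, 1147 with no fold minimum, 1130 with the liver-transcript arrays blocked or left out, and 0 with the replicate block or the t-test, while 0 members were called in one fit of all arrays, with the replicate block, by the t-test and at 0.05. Single omissions gave 0 to 1741 genes and 0 to 3 members. In KC against vehicle they gave 0 to 92 genes and 0 to 1 members. The causes were not tested.

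The members that turned sign were not called. For IL-8 against vehicle these were Hspa1b with array weights (-0.069), the replicate block (-0.20) and the liver-transcript block (-0.020), Hspa8 with quantile normalization (0.016), Hspb7 (-0.031) and Cryab (-0.16) with the liver-transcript block, and Hspb1 (-0.073), Hspb6 (-0.39) and Cryab (-0.49) with those arrays left out. For KC against vehicle these were Hspa8 with the replicate block (-0.029), Bag3 with quantile normalization (-0.071), and Hspb1 (-0.28) and Bag3 (-0.46) under both liver-transcript settings. For IL-8 against KC it was Hsph1 with the replicate block (-0.018). Under single omissions the ranges that crossed 0 were -0.26 to 0.13 for Hspa1b and -0.24 to 0.39 for Cryab in IL-8 against vehicle. In KC against vehicle they were -0.14 to 0.44 for Hspa1b, -0.029 to 0.097 for Hspa8, -0.11 to 0.69 for Hspb1, -0.59 to 0.37 for Hspb6, -0.58 to 0.046 for Cryab and -0.12 to 0.25 for Bag3. In IL-8 against KC they were -0.43 to 0.17 for Hspa1b and -0.018 to 0.37 for Hsph1. Same-numbered arrays deviated together at -0.36 to 0.36, with no steady sign, so the replicate numbers were not taken to pair samples.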
